A study of Mus musculus with 20 samples.

Results

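The 9 genes described here encode the enzymes and the channel by which a cell makes glycerol 3-phosphate and builds triglyceride on it: Pck1, Aqp7, Gpd1, Gpam, Agpat2, Lpin1, Dgat1, Dgat2 and Pnpla3. They were chosen by name, as the probe sets annotated with exactly 1 gene symbol where that symbol was one of the 9. The rule found 19 of the 45101 probe sets on the array and all 9 genes among the 18193 genes with such a probe set, and 16 of the 19 probe sets reached the level required for testing. Each gene was followed through its brightest probe set, and all 9 were tested.

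The arrays measured RNA from mouse aorta, and each of the 20 arrays (3 per group, 2 in one group) held RNA pooled from 8 aortas. In the drug experiment adult C57BL/6J mice ate chow containing rosiglitazone, a thiazolidinedione that activates the nuclear receptor PPAR gamma, at daily doses of 3 or 10 mg/kg, each for 2 days and for 14 days. These 4 groups shared 1 set of 3 control pools fed plain chow, so their differences from chow are not independent of each other. The group at 10 mg/kg/day for 14 days had 2 pools and the others had 3. In the genetic experiment, 3 pools came from adult mice with the dominant negative P465L mutation knocked into the mouse Pparg gene, and 3 from their wild-type littermates, all on standard chow. The knock-in is carried by every cell of the animal, and rosiglitazone was given to the whole animal, so neither perturbs the aorta alone. The zygosity of the knock-in, its strain background and the sex of the mice were not given in the labels, and neither was the vascular bed or the fat left on the vessel. Values are signals of the Affymetrix MAS5 algorithm, and differences are on the log2(signal + 72) scale, which understates the change of dim probe sets. Tests came from limma fitted to all 20 arrays and 11081 genes, and a gene was called where its p-value, adjusted over all of those genes by the Benjamini-Hochberg method, was under 0.05. The p-values measure the spread between these pools.

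Glyceroneogenesis makes glycerol 3-phosphate from pyruvate or lactate rather than from glucose, and its pace is set by the cytosolic phosphoenolpyruvate carboxykinase encoded by Pck1. Glycerol 3-phosphate is then acylated, dephosphorylated and acylated once more to give triglyceride. The route is most active in white and brown fat cells, where PPAR gamma is the main differentiation factor and Pck1 and Aqp7 are classical PPAR gamma targets. The aorta carries a coat of perivascular fat, part of it brown-like, so RNA of a whole vessel can include RNA of fat cells. In such bulk RNA, a change in the number of fat cells and a change in the RNA per fat cell cannot be told apart.

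Since Pck1 and Aqp7 had the largest differences under rosiglitazone, the 250 bases before the start of each are shown, 5′ to 3′ on the strand of the gene, from RefSeq on the GRCm38.p6 build. In Pck1 (chr2:173152823-173153072, plus strand) the capitals mark TTACGTCA, the core of the cAMP response element for which this promoter is known. That motif was searched after the sequence had been read. In Aqp7 (chr4:41047963-41048212, minus strand) the capitals mark TGACCT, which is the nuclear receptor motif AGGTCA read on the other strand.
Pck1: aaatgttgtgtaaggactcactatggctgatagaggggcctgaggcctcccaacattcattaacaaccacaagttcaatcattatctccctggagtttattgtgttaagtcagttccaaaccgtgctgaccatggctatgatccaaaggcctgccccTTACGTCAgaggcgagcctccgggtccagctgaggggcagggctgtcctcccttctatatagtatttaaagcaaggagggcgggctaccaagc
Aqp7: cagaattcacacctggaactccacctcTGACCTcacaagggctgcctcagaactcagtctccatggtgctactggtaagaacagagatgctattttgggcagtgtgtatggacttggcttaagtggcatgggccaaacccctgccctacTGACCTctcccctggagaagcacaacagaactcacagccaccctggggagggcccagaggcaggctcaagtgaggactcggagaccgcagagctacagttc

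Promoter windows of 300 bases were at hand for 6 of the 9 genes, with 8 windows in all, since Aqp7 and Gpam each had a pair of start sites. AGGTCA, searched on both strands, occurred in 4 of these 8 windows, those of Aqp7, Lpin1 and Gpam, against 16.3% of all 32851 windows. In the second Aqp7 window it began at -223 and at -101 from the start. The Aqp7 windows overlap, and the match at -223 is the same site as the match at -49 in the first window. The count by window therefore holds that site more than once. The direct repeat of AGGTCA with 1 base between its copies, which contains that motif and is the form bound by PPAR with its partner RXR, occurred in 0 of the 8 windows and in 0.0396% of all windows. TTACGTCA occurred in the Pck1 window, beginning at -93, and in 0.499% of all windows. These matches describe letters in the windows and say nothing on whether a factor is bound there.

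Pck1 had the largest difference among the 9 genes when rosiglitazone was compared with chow. In the 3 chow pools its signal was 6553, 6067 and 2338. In the 3 mg group it was 18824, 6094 and 17305 after 2 days, and 6332, 15906 and 10641 after 14 days. In the 10 mg group it was 9327, 10640 and 9718 after 2 days, and 17286 and 11650 after 14 days. The 5 pools at 10 mg all lay above the 3 chow pools, while at 3 mg the second pool of the 2-day group and the first of the 14-day group lay among them, so that 9 of 11 treated pools exceeded every control. Over the 4 treated groups Pck1 was 2.53-fold higher than in chow, a log2 difference of 1.34 with a standard error of 0.35 and a 95% interval from 0.62 to 2.06. It was not called (limma, adjusted p = 0.0943, unadjusted p = 0.000912). Without the second pool of the 3 mg, 2-day group the difference was 1.47 and was called (limma, adjusted p = 0.026). With each chow or treated pool left out in turn, it ran from 0.87 to 1.60 and adjusted p from 0.026 to 0.39 (limma).

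Aqp7, the aquaglyceroporin through which fat cells pass glycerol, came next. Its signal was dim, at 270, 300 and 183 in the chow pools. It was 729, 198 and 689 at 3 mg for 2 days and 418, 703 and 453 at 3 mg for 14 days. At 10 mg it was 444, 642 and 488 after 2 days and 790 and 605 after 14 days. All treated pools except the same second pool of the 3 mg, 2-day group lay above the chow pools, 10 of 11 in all. Aqp7 was 1.93-fold higher over the 4 groups (log2 difference 0.95, standard error 0.28), and it was not called (limma, adjusted p = 0.135). Without that pool the difference was 1.08 and was called (limma, adjusted p = 0.026). With each chow or treated pool left out in turn, the difference ran from 0.79 to 1.08 and adjusted p from 0.026 to 0.396 (limma). Aqp7 reached the level for testing, a mean log2 value of 8.73, only through the rosiglitazone groups. Its group means were 9.10 to 9.58 there, but 8.32 in chow, 8.70 in the littermates and 7.91 in the knock-in. The filter was thus not independent of the drug difference, and without it Aqp7 was still not called.

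Gpd1, the cytosolic dehydrogenase that makes glycerol 3-phosphate from the glycolytic intermediate dihydroxyacetone phosphate, had signals of 11768, 9334 and 5427 in chow. In the treated pools it ranged from 7812 to 27095, and 6 of 11 pools exceeded every control. Its log2 difference was 0.66 (standard error 0.33, limma, adjusted p = 0.379).

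The genes that act on glycerol 3-phosphate differed less. Gpam, the mitochondrial acyltransferase of the first step, had signals from 5410 to 7724 in chow and from 6612 to 10382 in the treated pools, a log2 difference of 0.33. For Agpat2, the acyltransferase of the second step whose loss in humans causes generalized lipodystrophy, chow pools lay between 8381 and 11217 and treated pools between 9689 and 25997, a difference of 0.38. The phosphatase Lpin1 had a difference of 0.21. Of the acyltransferases that complete the triglyceride, Dgat1 had a difference of 0.36 and Dgat2 of 0.08. Pnpla3, a lipid droplet protein that responds to feeding and insulin, was the only one of the 9 below its chow mean, at -0.18. The adjusted p of these 6 genes ran from 0.373 to 0.94 (limma), and the pools of every one overlapped those of chow. None of the 9 genes had all 11 treated pools above all chow pools (0 of 9), as 0.803% of all genes had.

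No member was called over the 4 groups, 0 of 9, while 48 of 11081 genes were (0.433%), 26 higher and 22 lower. That number of genes rested on the 3 chow pools, being 3, 11 and 1 without each in turn. At an unadjusted p under 0.05, 2 of the 9 were higher, where 1569 of all genes (14.2%) passed in either direction. The median difference of the 9 was 0.36, with 8 higher and 1 lower, against -0.02 for all genes tested. The PPAR targets Acaa1b, Rbp7, Pdk4, Angptl4 and Fabp4, chosen with earlier results of these data known, were all called in the same arrays. Their log2 differences ran from 0.84 for Fabp4 to 2.00 for Acaa1b (limma, adjusted p between 0.0197 and 0.0305). For each of them all 11 treated pools lay above all chow pools. Of these 5 targets, 4 were also called higher in the untreated littermates against chow, beside 2.6% of all genes. The median of the 5 there was 1.29, against 1.44 under the drug, so a rise in them was not particular to the drug.

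**Figure D1:**
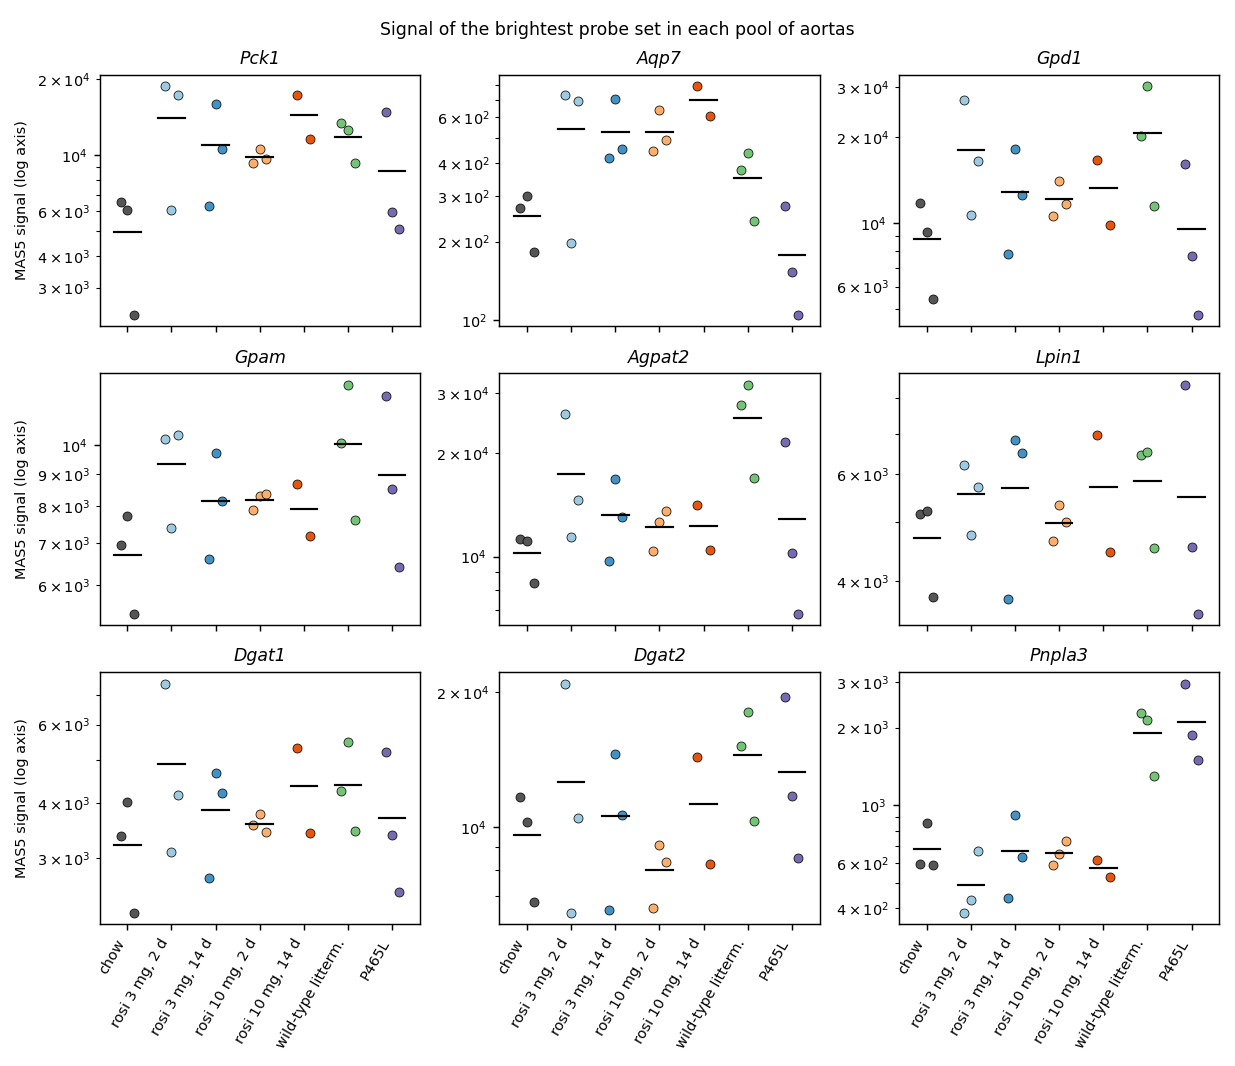
MAS5 signal of the brightest probe set of each gene (log axis) in each pool of 8 aortas, by group, with the group mean as a bar. Pck1 and Aqp7 lie higher in most rosiglitazone pools than in chow, the pools of a group spread widely for nearly all genes, and Pnpla3 separates the 6 pools of the genetic experiment from the 14 of the drug experiment.

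Dose and time were compared within the treated pools. Taken by group, Pck1 was higher than chow by 1.46 at 3 mg for 2 days, 1.16 at 3 mg for 14 days, 1.11 at 10 mg for 2 days and 1.63 at 10 mg for 14 days. Aqp7 was higher by 0.78, 0.87, 0.89 and 1.26 in the same order. No member was called in any of the 4 groups (0 of 9 each), where the share of all genes called was 0%, 0%, 0.505% and 0.271%. Pools lay wholly above chow for Aqp7 at 3 mg for 14 days, for Pck1 and Aqp7 in both 10 mg groups, for Gpam at 10 mg for 2 days and for Agpat2 at 3 mg for 2 days. Among all genes, 5.09% were wholly above chow at 3 mg for 2 days, 6.13% at 3 mg for 14 days, 10.2% at 10 mg for 2 days and 14.8% at 10 mg for 14 days. The difference between 10 and 3 mg lay between -0.25 for Agpat2 and 0.25 for Aqp7. Between 14 and 2 days it lay between -0.19 for Gpd1 and 0.23 for Aqp7. Neither contrast called a member or any other gene (0% of 11081, limma). At an unadjusted p under 0.05 they held 1405 and 464 genes. The 95% interval for Pck1 between doses, from -0.61 to 0.74, leaves room for differences of either sign.

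In the P465L knock-in the 2 genes with the lowest values against wild-type littermates were Gpd1 and Agpat2. Gpd1 signals were 20313, 30310 and 11467 in the littermates and 16168, 7654 and 4775 in the knock-in. Agpat2 signals were 27625, 31636 and 16945 in the littermates and 21539, 10246 and 6818 in the knock-in. For both genes 2 of 3 knock-in pools lay below every littermate pool and the first knock-in pool lay among them. The log2 difference was -1.18 for Gpd1 (standard error 0.42, limma, adjusted p = 0.625) and -1.09 for Agpat2 (standard error 0.33, unadjusted p = 0.00344, limma, adjusted p = 0.494).

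The genes with the largest differences under the drug were also below their littermate means, Aqp7 by a log2 difference of -0.79 and Pck1 of -0.59. Aqp7 signals were 376, 437 and 241 in the littermates against 275, 153 and 105 in the knock-in. Pck1 signals were 13402, 12633 and 9326 against 14912, 5945 and 5120, so that the first knock-in pool was the highest of the 6. With the second probe set of Pck1 it was not, at 6217, 7785 and 4154 against 5372, 2053 and 1803. That probe set differed by -1.09, and the dimmest one, below the level for testing, by 0.008. The other genes were Dgat1 at -0.28, Gpam at -0.18, Dgat2 at -0.18, Lpin1 at -0.16 and Pnpla3 at 0.13. No member was called (0 of 9), and neither were more than 2 of all genes (0.0181%). The median of the 9 was -0.28, with 8 lower and 1 higher, against 0.01 for all genes tested. The pools of the 2 genotypes overlapped for each of the 9 genes, so that 0 of 9 lay wholly lower, where 6.99% of all genes did. In the same pools 9 of the 10 fat cell markers tested were lower in the knock-in (median -0.40, 0 called), and so were 6 of 7 brown fat markers (median -0.996), of which Elovl3 was called at -2.35 (limma, adjusted p = 0.0087). The 3 liver markers tested were lower by a median of -1.86 and the 5 skeletal muscle markers by -1.30, with 0 called in either list. The smooth muscle markers were lower in 7 of 8 (median -0.24, 0 called), 5 of the 8 wholly below the littermates. The part of these marker differences in the member values was not tested. Pparg itself, whose coding sequence carries the mutation, differed by -0.07 between genotypes, which does not check the labels since the mutant transcript is made from the same locus.

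Members were called in 1 comparison, that of the untreated cohorts of the 2 experiments. Agpat2 was 2.41-fold higher in wild-type littermates than in chow controls (log2 difference 1.27, standard error 0.33, limma, adjusted p = 0.0256), and Pnpla3 was 2.59-fold higher (1.37, standard error 0.27, limma, adjusted p = 0.0043). Pnpla3 signals were 597, 856 and 587 in chow and 2280, 2135 and 1296 in the littermates. Across the 4 rosiglitazone groups Pnpla3 lay between 386 and 920, and in the knock-in it was 2954, 1878 and 1497. All 6 pools of the genetic experiment therefore lay above all 14 pools of the drug experiment. For Agpat2 the 3 littermate pools lay above the 3 chow pools, but the 11 rosiglitazone pools reached 25997 and overlapped them.

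Of the other members, Pck1 was higher in the littermates by 1.35 with no overlap between the cohorts (limma, adjusted p = 0.0652). Gpd1 was higher by 1.18 and Gpam by 0.57, with adjusted p of 0.0917 and 0.0992 (limma). Dgat2 at 0.59, Dgat1 at 0.46, Aqp7 at 0.38 and Lpin1 at 0.30 had overlapping pools. In all, 2 of 9 members were called, both higher, beside 719 of all 11081 genes (6.49%), of which 288 were higher (2.6%). Without the second littermate pool 279 genes were called, and without the third chow pool 322. All 9 members were above chow, with a median of 0.59, against -0.04 for all genes tested. Pools were wholly above chow for 3 of the 9 and for 11.8% of all genes. Agpat2 was no longer called without any 1 of the 3 chow pools or of the first and second littermate pools, with adjusted p from 0.052 to 0.127 (limma). The call of Pnpla3 held without each pool in turn. Without the third littermate pool, Gpd1 and Gpam were called as well, at 1.55 and 0.75 with adjusted p of 0.045 and 0.046 (limma). The strain of the littermates and the facility and time of both cohorts were not given, so that cohort and experiment cannot be told apart. Fat cell markers were higher in the littermates in 9 of 10 (median 0.60), with Thrsp and Car3 called, and brown fat markers in 7 of 7 (median 1.22), with Ucp1, Elovl3 and Otop1 called. The 5 skeletal muscle markers tested were all higher in the littermates, by a median of 2.46, and the 3 liver markers tested by 1.47. In either list 0 were called, and the pools of each of the 5 muscle markers overlapped. The part of these markers in the member differences was not tested.

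**Figure D2:**
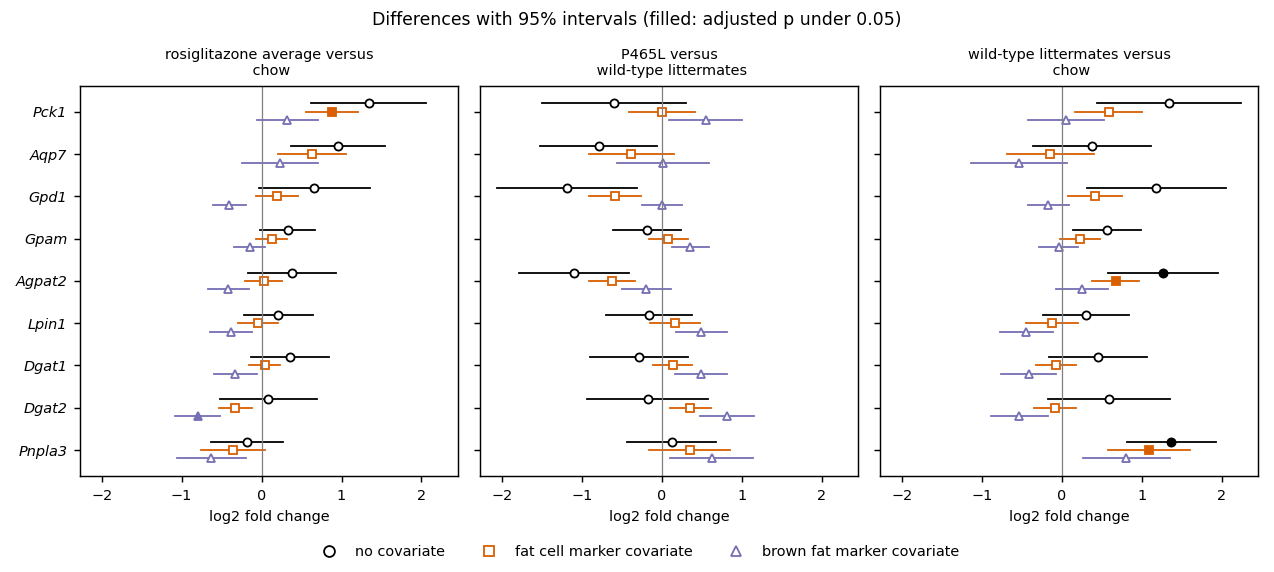
Log2 differences of the 9 genes with 95% intervals in the rosiglitazone average against chow, P465L against wild-type littermates, and littermates against chow. Circles are without a covariate, squares with the mean of 10 fat cell markers and triangles with the mean of 7 brown fat markers as a covariate, and filled symbols passed an adjusted p of 0.05. Most differences move toward or past 0 with a covariate, and Pck1 under rosiglitazone passes with the first covariate and not with the second.

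The spread between pools of the same group was large for these genes and was shared among them. The pooled standard deviation within groups was 0.65 for Pck1 and 0.63 for Gpd1 on the log2 scale, and the smallest was 0.29 for Gpam, while the median of all genes was 0.19. A set of 10 fat cell markers outside the 9 genes served as a measure of fat cell RNA: Adipoq, Retn, Cidec, Lipe, Slc2a4, Cebpa, Thrsp, Car3, Sncg and Adig. Their mean, centred over all arrays, spanned 1.27 log2 units among the 3 pools at 3 mg for 2 days and 0.14 among the 3 pools at 10 mg for 2 days. The summed signal of the 11 fat cell markers measured, Lep included, lay between 102824 and 146402 in chow, between 128805 and 279260 in the rosiglitazone groups, between 180633 and 277201 in the littermates and between 133047 and 247720 in the knock-in. For the 7 brown fat markers it lay between 37118 and 80030 in chow and between 84677 and 212099 in the rosiglitazone groups, without overlap. It lay between 90909 and 186350 in the littermates and between 37981 and 131185 in the knock-in. No marker of either list was at 0, which does not show expression, since probe sets below the level for testing had signals above 0 too. Group means of the fat cell marker mean ran from -0.28 in chow to 0.29 at 3 mg for 2 days, with 0.26 in the littermates and -0.16 in the knock-in.

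Within groups, 8 of the 9 genes followed this marker mean. Over the deviations of the 20 arrays from their group means, Pearson's r was 0.966 for Dgat2 (Spearman's rho 0.955), 0.958 for Dgat1 (0.94), 0.947 for Gpd1 (0.944), 0.939 for Agpat2 (0.929) and 0.914 for Pck1 (0.895). It was 0.894 for Gpam (rho 0.878), 0.867 for Lpin1 (0.898) and 0.861 for Aqp7 (0.847). For these 8 the permutation p within groups, two-sided and adjusted over the 9 relations, was 0.00018 to 0.000214 for r and 0.00018 to 0.000551 for rho. Without the 2 arrays farthest from the median of the marker mean, which were the first pool at 3 mg for 2 days and the third chow pool, r was between 0.827 for Aqp7 and 0.954 for Gpam. Of all genes tested, 1.98% had an r of 0.861 or more, and the median r was -0.01. The markers share their array's scaling with the 9 genes.

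Pnpla3 was the exception, at r = 0.597 and rho = 0.57 with an adjusted permutation p of 0.0555 for r and 0.0556 for rho. Without those 2 arrays its r was 0.9. In the pool richest in fat cell markers, the first at 3 mg for 2 days, Pnpla3 had its lowest signal of all 20 arrays, 386. A unit of the marker mean went with 1.42 log2 units of Pck1 and of Gpd1, 1.26 of Dgat2, 0.63 of Gpam and 0.52 of Pnpla3. Between members, r of the deviations was highest for Dgat1 with Dgat2, at 0.958, and lowest for Dgat1 with Pnpla3, at 0.551.

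**Figure D3:**
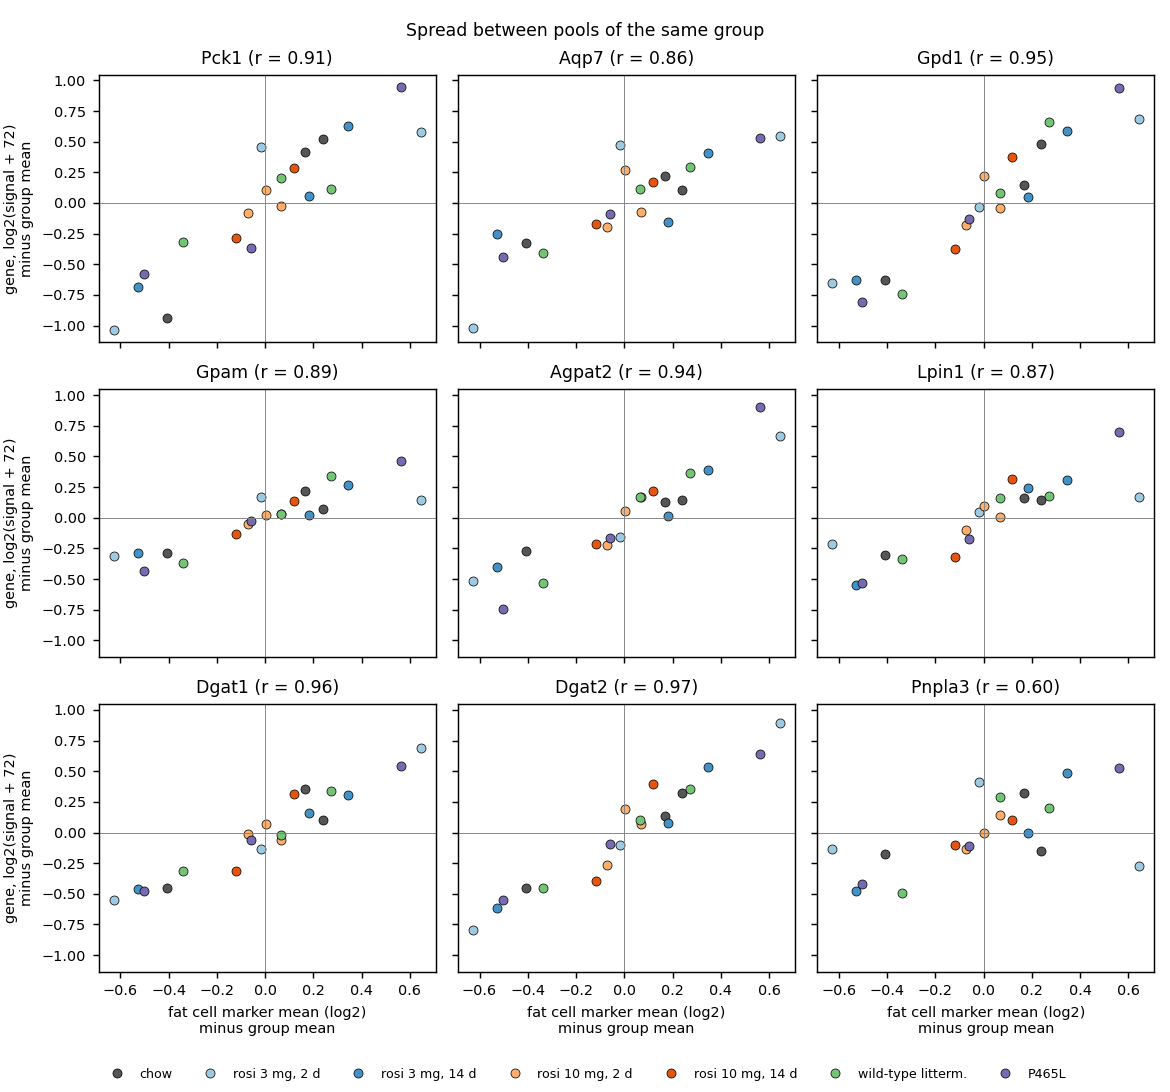
Deviation of each gene from its group mean, on the log2(signal + 72) scale, against the deviation of the mean of 10 fat cell markers, for the 20 pools coloured by group. Points lie along a rising line for 8 genes, with r from 0.86 to 0.97, and scatter for Pnpla3, whose r is 0.60.

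With the marker mean as a covariate in the same fit, what was left of most drug differences was small. The markers were themselves higher under the drug in 8 of 10, Adig by 0.85, Adipoq by 0.79 and Cidec by 0.79, and 2 were lower. The covariate can thus take out a response of the markers to the drug as well as the amount of fat, and the fit cannot separate them. Agpat2 went from 0.38 to 0.02, Dgat1 from 0.36 to 0.04 and Gpd1 from 0.66 to 0.20. Pck1 kept 0.88 (standard error 0.16) and was called (limma, adjusted p = 0.0059), 1 of 9 members, beside 1.19% of all genes. It was also called at 10 mg, at 0.89 after 2 days and 1.18 after 14 days, with adjusted p of 0.015 and 0.0088 (limma), where 2.37% and 1.18% of all genes were called. The average of Dgat2 went from 0.08 to -0.33 and was not called (limma, adjusted p = 0.0948). At 10 mg for 2 days Dgat2 went from -0.24 to -0.43 and was called lower (limma, adjusted p = 0.0493). Aqp7 kept 0.64 and was not called (limma, adjusted p = 0.124). In each pool, the log2 level of Pck1 less the marker mean, centred over the arrays, was -0.48, -0.51 and -1.29 in chow and between -0.28 and 0.71 in the 11 treated pools, without overlap. Among all genes 0.208% were wholly higher in this way, but their median r with the markers was -0.01, against 0.914 for Pck1. That share is therefore no like comparison. The subtraction also takes a slope of 1 on the markers, where Pck1 had 1.42.

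The call of Pck1 depended on the third chow pool and on the choice of markers. Without that pool the difference was 0.71 (limma, adjusted p = 0.054). Its 10 mg calls were lost without the third chow pool or the second treated pool at 2 days and without the first treated pool at 14 days, with adjusted p of 0.074, 0.065 and 0.141 (limma). The call of Dgat2 was lost without any 1 of 5 of the 6 pools compared, with adjusted p from 0.076 to 0.151 (limma). With 7 brown fat markers (Ucp1, Cidea, Elovl3, Cox7a1, Cox8b, Otop1 and Dio2) as the covariate in place of the first set, Pck1 had 0.32 over the 4 groups (limma, adjusted p = 0.433) and Aqp7 had 0.23. In that fit Dgat2 was called lower, by -0.80 over the 4 groups (limma, adjusted p = 0.0062), where 0.487% of all genes were called. Gpd1 was called lower at 10 mg, by -0.43 after 2 days and -0.56 after 14 days (limma, adjusted p = 0.0437 and 0.0478), where 2.7% and 0.623% of all genes were. Without a covariate Gpd1 was above chow in these groups, by 0.51 and 0.61, and not called. The lower values arose only with this covariate, which was chosen after seeing the data. The brown fat markers were themselves above chow over the 4 groups, 7 of 7 with a median of 0.96 and 0 called, while the fat cell markers were higher in 8 of 10 with a median of 0.36 and 0 called. Their part in the differences of the 9 genes beyond these fits was not tested.

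Set against the fat cell markers of the same pool, the members parted in the knock-in. Aqp7 relative to the markers was -0.78, -0.78 and -0.69 in the knock-in and -0.34, -0.36 and -0.45 in the littermates, without overlap. Its signal was dim there, between 105 and 275 in the knock-in. Its second probe set had 533, 781 and 182 in the littermates and 464, 168 and 107 in the knock-in. Those pools overlapped, also relative to the markers. Agpat2 relative to the markers was also wholly lower, between -0.33 and 0.25 against 0.38 to 0.68. Dgat2 relative to the markers was wholly higher, at 0.35 to 0.46 against 0.02 to 0.22, and Gpam, Lpin1, Dgat1 and Pnpla3 were wholly higher too. That made, by the brightest probe sets, 2 of 9 members wholly lower and 5 of 9 wholly higher, where 0.28% and 2.74% of all genes were. These shares are no like comparison, since 8 members had an r of 0.861 or more with the markers and all genes a median of -0.01. The subtraction also takes a slope of 1 on the markers, which were lower in the knock-in. The slope was 0.52 for Pnpla3, 0.63 for Gpam and 0.78 for Lpin1, but 1.26 for Dgat2. In the fit with the covariate none of the 9 was called, beside 0.0451% of all genes. Agpat2 had -0.63 (limma, adjusted p = 0.207), Gpd1 -0.58, Dgat2 0.36 and Pck1 0.01. In the littermates against chow, Agpat2 at 0.68 and Pnpla3 at 1.09 were called with this covariate (limma, adjusted p = 0.0076 and 0.0132), where 6.17% of all genes were. Neither was called with the brown fat markers, at 0.25 and 0.81 (limma, adjusted p = 0.403 and 0.102), where 1.98% of all genes were. Pnpla3 was not called with the first covariate without the first chow pool (limma, adjusted p = 0.081).

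**Figure D4:**
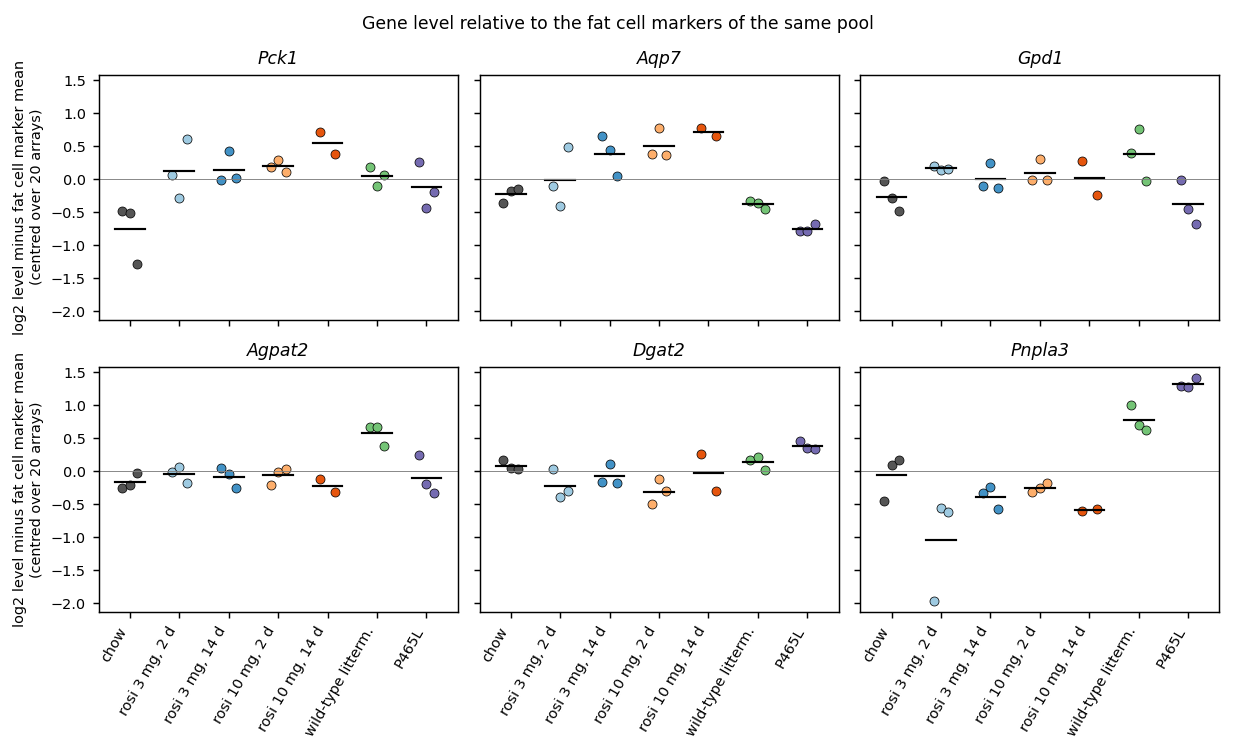
Log2 level of the brightest probe set of 6 of the genes minus the fat cell marker mean of the same pool. Values are centred over the 20 arrays and shown by group, with the group mean as a bar. The 11 rosiglitazone pools of Pck1 lie above the 3 chow pools, as do all pools of the genetic experiment. Aqp7, which is dim, is lower in the knock-in than in its littermates, and Pnpla3 is high in both groups of the genetic experiment.

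Several genes had more than 1 probe set, 10 beside the brightest ones, of which 7 reached the level for testing. In the rosiglitazone average all 7 had the sign of the brightest, and 8 of all 10 did. The second probe set of Pck1 differed by 1.16 and that of Aqp7 by 0.74. Relative to the fat cell markers, the second probe set of Pck1 did not separate the treated pools from chow. In it the first chow pool had a signal of 3023 at a marker mean of -0.038. The third pool at 10 mg for 2 days had 2879 at -0.053. In the knock-in 7 of 10 and in the littermates 6 of 10 had the sign of the brightest. Another probe set of Gpd1 went the other way in both, by 0.87 in the knock-in and -0.35 in the littermates. So did the dim second probe set of Dgat1, at 1.08 and -0.97. The second brightest probe set of Gpd1 went with the brightest, at -1.38 in the knock-in and 1.56 in the littermates. The opposing probe set of Dgat1 lay below the level for testing. Of the 7 that reached that level, 6 had the sign of the brightest in each of the 2 comparisons. The sign of both genes there still depends on whether the dimmer probe sets are read. In the littermates the dimmest probe set of Pck1, below the level for testing, was at -0.63, where its brightest was at 1.35.

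Of 22 listed enzymes and helpers of the pathway outside the 9, 20 were measured and 15 were tested, while Gk and Acsl1 were not analysed here. Under rosiglitazone 8 of the 15 were higher and 7 lower, with a median of 0.14 and 0 called. The highest were the microsomal acyltransferase Gpat3 at 0.52 and the lipid droplet protein Fitm2 at 0.35. The lowest were the mitochondrial carboxykinase Pck2 at -0.31 and the Gpd1 relative Gpd1l at -0.28. In the knock-in 13 of 15 were lower and 2 higher, with a median of -0.16 and 0 called, against a median of 0.01 for all genes tested, and the lowest were the monoacylglycerol acyltransferase Mogat1 at -0.65, with all 3 pools below the littermates, and pyruvate carboxylase, Pcx, at -0.46. The highest were Lpin2 at 0.03 and Agpat1 at 0.02. Between the cohorts, Gpd2, the mitochondrial glycerol 3-phosphate dehydrogenase, was called, 1.16 higher in the littermates (limma, adjusted p = 0.0202), 1 of 15 beside 6.49% of all genes.

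The genes whose levels followed the mean of the 9 most closely over the 20 arrays were Chpt1 (r = 0.97), Otop1 (0.961), Lipe (0.959), Acadvl (0.958) and Hibch (0.954), named as the 5 highest of all genes tested. Lipe, hormone-sensitive lipase, is one of the fat cell markers used above, and Otop1 one of the brown fat markers. Smooth muscle markers, the defining genes of the vessel wall, were present in every pool, with the summed signal of 8 genes between 376435 and 534212.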

How the data were processed

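Each array held RNA of 8 pooled aortas and was hybridised to an Affymetrix whole-genome mouse array, per the labels' protocols. The authors deposited linear MAS5 signal intensity values, per the submitters' processing notes, whose MAS5 version is not given in the sources used here. Each array's mean after setting aside 2% at each end was 1500, and array medians lay between 321.3 and 450.7. With 2 or 3 arrays a group, their number limits precision. Of 45101 probe sets, 64 were controls, 34945 had 1 symbol, 932 had several and 9160 had none. Of those with 1 symbol, 34741 matched RefSeq by Entrez ID.

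Signals were taken as log2(signal + 72), 72 being close to the 20th percentile of all values. The brightest probe set stood for a gene, and genes were tested where its mean reached the median of all probe sets (signal 352.4). Tests used limma 3.58.1 in R 4.3.3 with 1 mean per group, a trend, and 13 residual and 7.3 prior degrees of freedom, checked on simulated data. Relations to the fat cell markers used 100000 permutations within groups (Python 3.11.15, numpy 2.4.6, scipy 1.17.1). All 9 members were named in every comparison, other pathway genes where called or among the 2 highest and 2 lowest. The members and lists were chosen with earlier results of these data known. Replicate letters were shared between groups, but over 57 pairs the median correlation of deviations was 0.025 (from -0.301 to 0.358), so arrays were not paired. Alternatives were an offset of 16, no level filter, quantile normalization, the mean of probe sets, the arrays of 1 experiment, a replicate block, marker covariates and each array left out. The brown fat covariate, and arrays left out with a covariate, were chosen after seeing the data.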

Additional observations from a re-analysis of the deposited data

How the results depend on the processing

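Of 1287 member differences recomputed from the fit without a covariate, 1157 kept their direction and their side of the threshold, 113 changed sign, 10 passed it anew and 7 fell short of it. Of the 113, 24 came with the fat cell marker covariate, 43 with the brown fat covariate, 43 with one array left out and 3 with the mean of the probe sets. None of the 113 was called before (0), and 3 were called after the change of sign, all with the brown fat covariate, which was chosen after seeing the data: Dgat2 over the 4 groups (limma, adjusted p = 0.0062) and Gpd1 at 10 mg, at -0.43 after 2 days and -0.56 after 14 days (limma, adjusted p = 0.0437 and 0.0478). An offset of 16, no level filter, quantile normalization and the replicate block changed no member's direction or call in any comparison. Small differences are limited by 2 or 3 arrays a group, and all 3 chow pools of Aqp7 lay below the signal of 352.4 used as the level minimum.

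With the fat cell marker covariate, the rosiglitazone average turned to -0.048 for Lpin1 and -0.33 for Dgat2. The knock-in difference turned to 0.007 for Pck1, 0.084 for Gpam, 0.17 for Lpin1, 0.14 for Dgat1 and 0.36 for Dgat2. The littermate difference turned to -0.14 for Aqp7, -0.12 for Lpin1, -0.072 for Dgat1 and -0.086 for Dgat2. With the brown fat covariate, the average turned to -0.40 for Gpd1, -0.15 for Gpam, -0.42 for Agpat2, -0.38 for Lpin1, -0.33 for Dgat1 and -0.80 for Dgat2, and Aqp7 at 3 mg for 2 days to -0.024. The knock-in difference turned to 0.55 for Pck1, 0.020 for Aqp7, 0.008 for Gpd1, 0.36 for Gpam, 0.50 for Lpin1, 0.49 for Dgat1 and 0.82 for Dgat2, and the littermate difference to -0.54 for Aqp7, -0.17 for Gpd1, -0.040 for Gpam, -0.44 for Lpin1, -0.41 for Dgat1 and -0.53 for Dgat2. The fit with the fat cell marker covariate called 132 genes and 1 member over the 4 groups, 13 genes at 3 mg for 14 days, 263 genes and 2 members at 10 mg for 2 days, 131 genes and 1 member at 10 mg for 14 days, 9 between doses, 1 between times and 5 in the knock-in. With the mean of the probe sets, Pck1 between doses was -0.12, and Dgat1 was 0.40 in the knock-in and -0.26 in the littermates. That setting called 27 genes at 10 mg for 2 days, 1 in the knock-in and 449 between the cohorts. With only the arrays of 1 experiment, 14 genes were called at 10 mg for 2 days, 9 at 10 mg for 14 days, 5 between times and 0 in the knock-in, and Pck1 was called between the cohorts (limma, adjusted p = 0.033). With no level filter, 0 genes were called at 10 mg for 14 days. Quantile normalization called 1 gene in the knock-in. A replicate block by letter called 52 genes over the 4 groups, 2 between doses and 1 in the knock-in. The relation of Pnpla3 to the markers moved to r = 0.9 without the 2 farthest arrays. The cause of these shifts was not tested.

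With each array left out in turn, the genes called ranged from 1 to 83 over the 4 groups (lowest without the third chow pool, highest without the second pool at 3 mg for 2 days), from 0 to 3 at 3 mg for 2 days, from 0 to 5 at 3 mg for 14 days, from 0 to 18 at 10 mg for 2 days, from 0 to 9 at 10 mg for 14 days, from 0 to 3 in the knock-in and from 279 to 620 between the cohorts. Members called ranged from 0 to 2 over the 4 groups and from 1 to 4 between the cohorts. The average of Dgat2 ranged from -0.14 to 0.24, Pck1 between doses from -0.20 to 0.22, Aqp7 between doses from -0.007 to 0.38 and between times from -0.024 to 0.37. In the knock-in, Gpam ranged from -0.41 to 0.035, Lpin1 from -0.51 to 0.11, Dgat2 from -0.50 to 0.10 and Pnpla3 from -0.14 to 0.34.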
